A study of Mus musculus with 13 samples.

Results

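The carboxylesterases described here are 10 genes of mouse chromosome 8, the chromosome that also carries *Nod2*. They are *Ces1b*, *Ces1c*, *Ces1d*, *Ces1e*, *Ces1f*, *Ces1g*, *Ces2a*, *Ces2c*, *Ces2e* and *Ces3a*, taken from a liver count table of 53465 genes. The 10 genes were chosen by name with the difference between the genotypes already known, so that difference is described below without a test. The family has 20 genes on this chromosome in the annotation, and the other 10 were examined beside the members.

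The mice were male BALB/c mice, an inbred laboratory strain, and were either WT or Nod2-/-, which lack the intracellular sensor of bacterial peptidoglycan encoded by *Nod2*. Mice of both genotypes had received the carcinogen DMBA as pups and were then kept on a high-fat diet (HFD), and the sample labels give 30 weeks for both age and diet. There was 1 liver library per mouse from 6 WT and 7 Nod2-/- mice. The study did not use littermates, so genotype and breeding pair cannot be told apart, although several cages and breeding pairs were used for each experiment, and mice without DMBA or on another diet were not analysed here.

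Carboxylesterases are hydrolases that cleave ester, thioester and amide bonds, and most of them reside in the endoplasmic reticulum of the hepatocyte, where a retention signal at the end of the protein holds them. They activate or inactivate drugs, clear environmental esters such as pyrethroids, and release fatty acids from stored triacylglycerol and cholesteryl esters. The mouse has more genes of the family than the human, since the Ces1, Ces2 and Ces3 groups expanded by tandem duplication.

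The family lies in 2 blocks of build GRCm38. The 8 Ces1 genes occupy 360 kb (chr8:93020214-93379725), all on the minus strand, and this block starts 4.33 Mb after the end of *Nod2* (chr8:88647315-88688474). *Ces1g* (ENSMUSG00000057074.6, chr8:93302369-93337308) is the seventh of the 8 genes along the block, and its nearest detected neighbour, *Ces1f* (chr8:93256236-93279747), ends 22.6 kb before it. *Ces1e* (chr8:93201218-93229619), *Ces1d* (chr8:93166068-93197838), *Ces1c* (chr8:93099015-93131283) and *Ces1b* (chr8:93056728-93080017) follow in that order away from *Ces1g*. The Ces2 and Ces3 genes lie 11.4 Mb further on, on the plus strand, with *Ces2a* at chr8:104734003-104741634, *Ces2c* at chr8:104847068-104854483, *Ces2e* at chr8:104926260-104934672 and *Ces3a* at chr8:105048601-105058413.

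Because the genes arose by duplication, reads of 43 bases, the length given in the labels, can be shared among them, and the transcripts of the GENCODE annotation of GRCm38 were compared to see how far. The coding sequence of *Ces1g* was 74.6% to 81.5% identical to those of the other 7 Ces1 genes and 62.3% to 64.8% identical to those of the 7 Ces2 genes. Of the 2346 windows of 43 bases in the *Ces1g* transcript, 2.26% occurred without change in another gene, and 12.4% matched another carboxylesterase within 2 mismatches. Windows were compared as single reads, although the reads were paired, so the other read of a pair may still tell the genes apart. A stretch of exon 13 shows the shared kind: it reads the same in *Ces1g* (chr8:93305821-93305863) and *Ces1f* (chr8:93256868-93256910), and a read from it cannot by its own sequence be assigned to either gene.
Ces1g and Ces1f, exon 13: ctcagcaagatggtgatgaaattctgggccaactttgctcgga

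The least similar coding stretch shows how the other reads tell the genes apart. It lies in exon 1 of *Ces1g* (chr8:93337106-93337148), and the same place in the 5 detected Ces1 neighbours differed from it at 18 to 21 of 43 bases, given here in capitals.
Ces1g: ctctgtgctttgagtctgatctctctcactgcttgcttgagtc
Ces1f: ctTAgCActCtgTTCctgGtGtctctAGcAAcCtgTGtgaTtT
Ces1e: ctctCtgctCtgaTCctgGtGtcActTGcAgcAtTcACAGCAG
Ces1d: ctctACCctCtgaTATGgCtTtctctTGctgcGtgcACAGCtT
Ces1c: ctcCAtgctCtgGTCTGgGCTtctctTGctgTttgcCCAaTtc
Ces1b: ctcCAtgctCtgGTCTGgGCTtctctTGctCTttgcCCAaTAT

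The last of these sequences are close to each other, and over their whole transcripts *Ces1b* and *Ces1c* matched another carboxylesterase within 2 mismatches in 44.7% and 47.6% of windows, mostly each other. The share was 68.2% for *Ces3a*, all of it with *Ces3b*, and 70.8% for *Ces2c*, mostly with the pseudogene *Ces2d-ps*. It was 11.4% for *Ces1f*, 17.5% for *Ces1d*, 17.6% for *Ces1e*, 22.7% for *Ces2a* and 20.2% for *Ces2e*. Windows that occurred without change in another gene were 15.2% for *Ces1b*, 20.9% for *Ces1c*, 26.7% for *Ces2a*, 47.6% for *Ces2c* and 35.0% for *Ces3a*. How reads that map to several places were counted is not given in the sources used here. Values of these 5 genes in particular may therefore hold reads of other genes. The reference genome is that of another strain (C57BL/6J) than these mice.

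Gene counts summed to 14886273 to 20579984 in a WT mouse and to 13824780 to 19391431 in a Nod2-/- mouse. *Nod2* itself had at most 4 counts in a WT mouse and at most 6 in a Nod2-/- mouse, so its level does not check the genotype labels. In the quasi-likelihood test of edgeR, after Benjamini-Hochberg adjustment, 157 of the 13545 genes tested passed 5% FDR between the genotypes, and this number was 1156 without WT replicate 3 and between 41 and 223 without any other mouse. Hepatocyte markers were abundant in every mouse, with summed levels of 85454 to 121411 CPM (counts scaled to a common library size) in WT and 87214 to 171845 CPM in Nod2-/- mice, and 0 of the 10 were past 5% FDR by edgeR (5 at an unadjusted p under 0.05, 4 past 5% FDR by DESeq2). Markers of lung epithelium were also present and moved with genotype, from 14.3 to 200.3 CPM in WT and from 2.93 to 33.5 CPM in Nod2-/- mice, highest in WT replicates 4, 2 and 3. In whole liver, fewer cells of a type and less RNA per cell cannot be told apart.

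*Ces1g*, which encodes an enzyme of hepatic lipid hydrolysis, was the member whose level differed most between the genotypes. Values are normalized counts, which are the deposited counts brought to 1 common effective library size, the mean over the mice. The 6 WT mice had 5005, 4907, 2485, 3025, 1946 and 1878 normalized counts of *Ces1g* in the order of their replicate numbers. The 7 Nod2-/- mice had 192, 169, 198, 27.9, 402, 118 and 173. Every Nod2-/- mouse was thus below every WT mouse, with Nod2-/- replicate 4 the lowest of all and Nod2-/- replicate 5 the highest of its genotype. The mean was 3208 ± 1417 (SD, n = 6) in WT and 183 ± 113 (SD, n = 7) in Nod2-/- mice, 17.5-fold lower, and the fitted log2 fold change was -4.13 (standard error 0.44). In raw reads the lowest library, Nod2-/- replicate 4, still had 28 counts of *Ces1g*, above the 3 counts taken as the limit of detection. The *Ces1g* transcript shares identical windows with each detected Ces1 neighbour, and this mouse had 14451 counts of *Ces1c*. Whether the low Nod2-/- counts of *Ces1g* are in part reads of those genes was not tested.

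Leaving out 1 mouse in turn moved the log2 fold change of *Ces1g* between -4.45 and -3.93. It was -4.01 without the 3 WT mice with the most lung marker RNA, an alternative added after the data were seen. The lung marker sums of WT replicates 1 to 6 were 14.3, 112, 56.4, 200.3, 20.7 and 17.1 CPM, so the WT mice with the highest *Ces1g* values, replicates 1 and 2, had the lowest and the second highest sum. Beyond the fit without those 3 WT mice, the part of lung RNA in the *Ces1g* level was not tested.

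The 5 Ces1 neighbours of *Ces1g* overlapped between the genotypes. *Ces1f*, the nearest, encodes an enzyme related to triacylglycerol hydrolase. Its normalized counts ranged from 4280 to 12055 in WT mice (median 7318) and from 1207 to 8403 in Nod2-/- mice (median 6087). In the Nod2-/- mice they fell into 4 mice at 6087 or above, within the WT range, and 3 mice (replicates 4, 6 and 7) at 2052 or below, under every WT mouse. The log2 fold change was -0.68 (standard error 0.45).

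*Ces1e* encodes the esterase known as egasyn, which retains beta-glucuronidase in the endoplasmic reticulum. It ranged from 1861 to 7464 normalized counts in WT mice (median 3500) and from 675 to 4560 in Nod2-/- mice (median 1855), and 4 of the 7 Nod2-/- mice were below every WT mouse. The same replicates 4, 6 and 7 that were low in *Ces1f* were the lowest in *Ces1e*. The log2 fold change was -1.09 (standard error 0.48).

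*Ces1d*, the triacylglycerol hydrolase that mobilizes stored lipid for very low-density lipoprotein (VLDL), had the highest coefficient of variation of the 10 members in both genotypes (64.6% in WT and 94.5% in Nod2-/- mice). It ranged from 7582 to 41685 normalized counts in WT mice (median 15265) and from 3632 to 29088 in Nod2-/- mice (median 5708). WT replicates 1 and 2 and Nod2-/- replicate 5 stood far above the others of their genotype, and 4 Nod2-/- mice were below every WT mouse. The log2 fold change was -1.14 (standard error 0.51), and -1.75 without Nod2-/- replicate 5.

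*Ces1c*, the esterase that the mouse liver secretes into plasma, ranged from 26711 to 48555 normalized counts in WT mice (median 31521) and from 14411 to 30289 in Nod2-/- mice (median 22788). *Ces1b* ranged from 3165 to 6212 (median 3813) and from 1997 to 3623 (median 2884). Of the Nod2-/- mice, 5 were below every WT mouse in *Ces1c* and 6 in *Ces1b*, and WT replicates 1 and 2 were again the highest. The log2 fold changes were -0.62 (standard error 0.20) for *Ces1c* and -0.68 (standard error 0.19) for *Ces1b*, the smallest standard errors of the 10 genes.

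**Figure D1:**
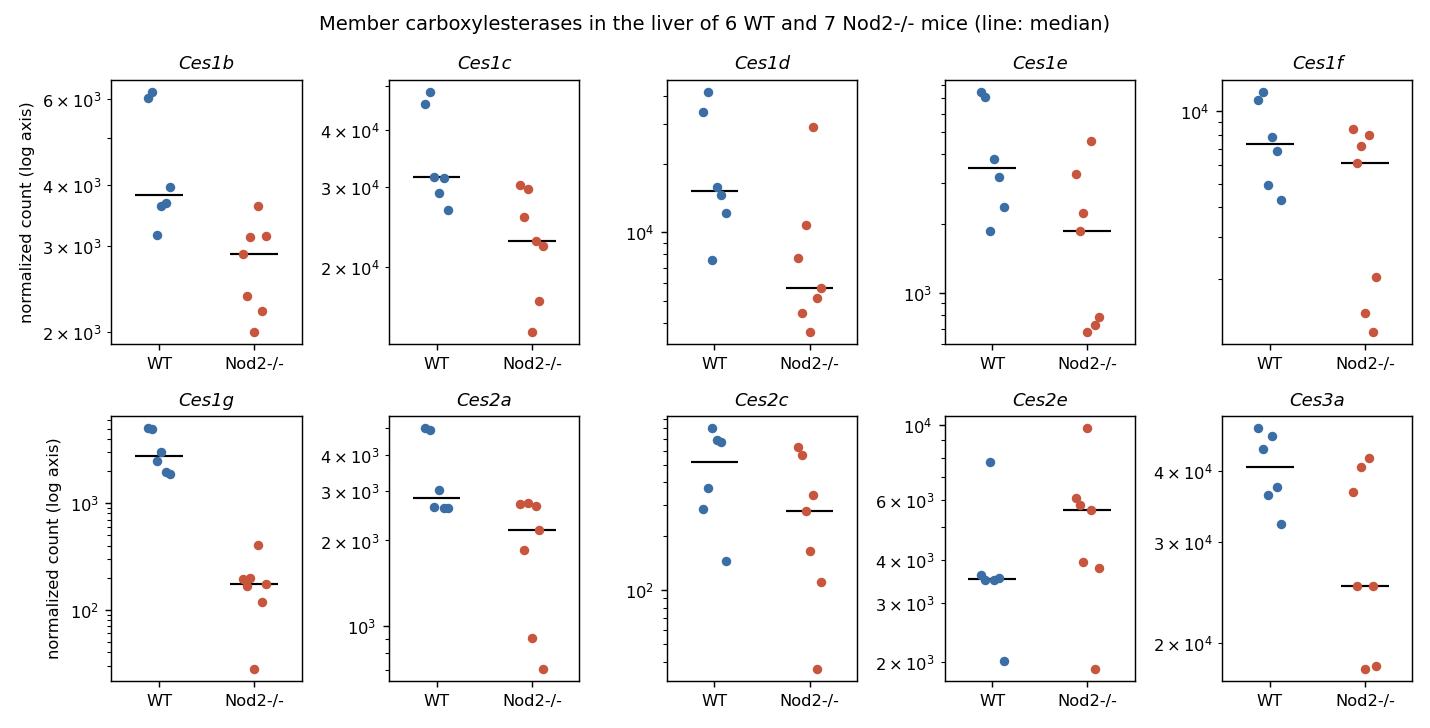
Normalized counts (log axis) of the 10 carboxylesterases in each of 6 WT and 7 Nod2-/- mice, with 1 point per mouse and a line at the median. *Ces1g* is the only gene whose genotypes do not overlap (1878 to 5005 against 27.9 to 402), and *Ces2e* is the only gene with a higher median in Nod2-/- mice.

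The Ces2 enzymes prefer esters with a small acyl group, and *Ces2a* and *Ces2e* act on pyrethroids while *Ces2c* is a microsomal acylcarnitine hydrolase. *Ces2a* ranged from 2595 to 4973 normalized counts in WT mice (median 2820) and from 704 to 2708 in Nod2-/- mice (median 2184), with 4 Nod2-/- mice below every WT mouse (log2 fold change -0.82, standard error 0.31). *Ces2c* was the least abundant member, from 146 to 797 in WT mice (median 519) and from 36.4 to 631 in Nod2-/- mice (median 276). Its log2 fold change of -0.69 (standard error 0.53) was -0.27 without the 3 WT mice with the most lung marker RNA.

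*Ces2e* was the member that went the other way. It ranged from 2014 to 7761 normalized counts in WT mice (median 3522) and from 1914 to 9758 in Nod2-/- mice (median 5634). In 4 of the 6 WT mice it lay between 3497 and 3619, with WT replicate 3 far above and WT replicate 6 below. The log2 fold change was 0.40 (standard error 0.33), from 0.18 without Nod2-/- replicate 4 to 0.69 without WT replicate 3, and 0.78 without the 3 WT mice with the most lung marker RNA.

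*Ces3a*, another liver esterase, ranged from 32277 to 47413 normalized counts in WT mice (median 40608) and from 18053 to 42024 in Nod2-/- mice (median 25222). Of the Nod2-/- mice, 3 (replicates 1, 3 and 5) lay within the WT range and 4 lay below it. The log2 fold change was -0.46 (standard error 0.21), and the coefficient of variation was 14.9% in WT and 34.7% in Nod2-/- mice.

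Counted over the members, 9 of 10 had a negative log2 fold change, beside 47.7% of all genes tested, and 8 had one below -0.5, beside 4.5%. The median was -0.69 against 0.02 over all genes tested. Past 5% FDR by edgeR was 1 of the 10, *Ces1g*, beside 1.16% of all genes tested in either direction. DESeq2 placed 3 of the 10 there, beside 8.41% of the genes to which it gave an adjusted p. At an unadjusted p under 0.05 were 7 of the 10, beside 23.1%. The genotypes did not overlap in 1 of the 10, beside 1.44% of all genes tested. These counts rest on the contrast that the genes were chosen with, and nothing is read from them.

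Levels can be compared between genes only per length. For that, the normalized reads were divided by the exon length of each gene (RPKM, reads per kilobase of exon at a common library size). This length joins the exons of all annotated transcripts, for *Ces1f* 3285 bases against 1926 in its longest coding transcript. The order and ranks of genes with close levels may change with another length. In WT mice *Ces3a* and *Ces1c* led with 930 ± 138 and 922 ± 239 (SD, n = 6), and they could not be ordered, since *Ces3a* was the higher in 4 of 6 mice. *Ces1d* followed at 534 ± 345, below *Ces1c* in all 6 mice. A group of genes from *Ces3b* (215 ± 32.7) down to *Ces1g* (81.0 ± 35.8) came next, among them *Ces1f*, *Ces1b*, *Ces1e*, *Ces2e* and *Ces2a*, with neighbours in the order overlapping except that *Ces2a* was above *Ces1g* in all 6 mice. *Ces2g* and *Ces2c* (12.9 ± 6.83) lay well below *Ces1g*.

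In Nod2-/- mice *Ces3a* stood at 676 ± 235 (SD, n = 7), *Ces1c* at 601 ± 156 and *Ces1d* at 242 ± 228. *Ces3a* and *Ces1c* could again not be ordered, *Ces3a* being the higher in 5 of 7 mice and *Ces1c* having the higher median (592 against 579). *Ces1g* ranked 10 in the family in WT and 12 in Nod2-/- mice, where it stood at 4.62 ± 2.86, and *Ces2c* was above it in 4 of 7 mice. The other gene that changed place by more than 1 step was *Ces2e*, from rank 8 in WT to rank 5 in Nod2-/- mice (118 ± 55.1).

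**Figure D2:**
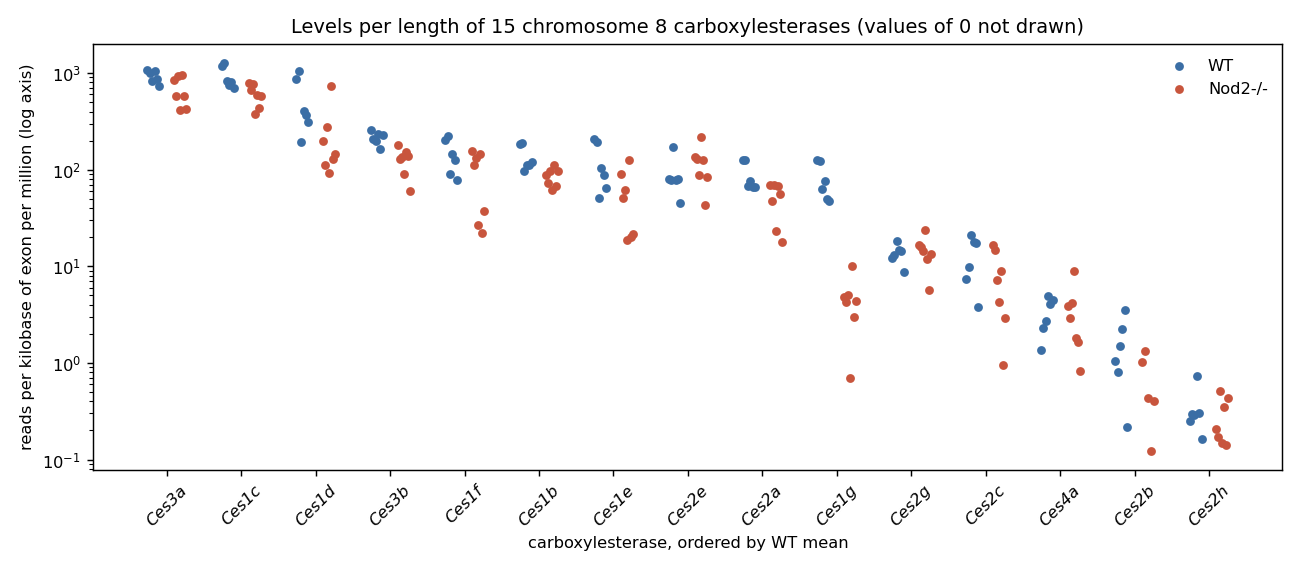
RPKM (log axis) of the 15 carboxylesterases of chromosome 8 with more than 100 counts in all, ordered by the WT mean, with 1 point per mouse. *Ces3a* and *Ces1c* lead in both genotypes, and *Ces1g* drops from 81.0 in WT to 4.62 in Nod2-/- mice.

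All 20 genes together took 0.792% ± 0.173 (SD, n = 6) of the counted reads in WT and 0.526% ± 0.171 (SD, n = 7) in Nod2-/- mice. Of the family's reads per length, *Ces1g* made up 1.77% to 2.91% in WT and 0.0520% to 0.332% in Nod2-/- mice. The shares of the leading genes overlapped between the genotypes, with *Ces1c* at 28.2% ± 2.23 and 29.9% ± 6.06 and *Ces3a* at 29.2% ± 4.51 and 32.4% ± 3.58.

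Set against its neighbours within each mouse, *Ces1g* had 28.6 to 50.1 reads for every 100 reads of *Ces1f* in WT mice, against 1.92 to 9.80 where *Nod2* was deleted. For every 100 reads of *Ces1e* it had 61.0 to 134 in WT and 4.14 to 22.0 in Nod2-/- mice, and for every 100 reads of *Ces1d* it had 11.8 to 32.8 and 0.769 to 3.83. None of these 3 ranges overlapped between the genotypes, while *Ces1e* against *Ces1d*, a pair without *Ces1g*, overlapped (16.9 to 24.5 and 13.8 to 42.3). The difference in *Ces1g* was thus not the same in size as that of the genes next to it in the same mice, which is a description, since the ratios rest on the same contrast.

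**Figure D3:**
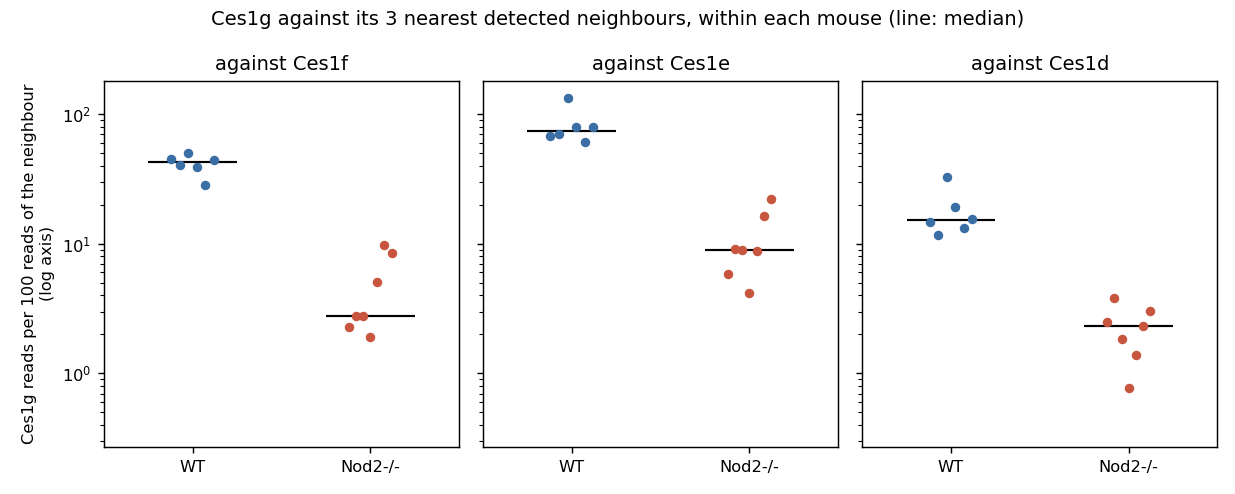
*Ces1g* reads per 100 reads of *Ces1f*, *Ces1e* and *Ces1d* (log axis) within each mouse, with 1 point per mouse and a line at the median. In all 3 panels the 6 WT mice lie above the 7 Nod2-/- mice, for *Ces1f* at 28.6 to 50.1 against 1.92 to 9.80.

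Variation among mice of the same genotype did not enter the choice of the genes, and it was used to ask whether the neighbours rose and fell with *Ces1g*. Each gene's log2 CPM was taken as the deviation from its genotype mean, and 9 relations with *Ces1g* were computed over the 13 mice. The deviation of *Ces1g* correlated with those of its 5 Ces1 neighbours at a Pearson r of 0.74 to 0.78 (Spearman rho 0.76 to 0.85), with *Ces3a* at 0.73 (rho 0.74) and with *Ces2a* at 0.65 (rho 0.73). *Ces2c* (r = 0.25, rho = 0.17) and *Ces2e* (r = -0.19, rho = 0.03) followed *Ces1g* little. Reads shared with the Ces1 neighbours may enter the low *Ces1g* counts of the Nod2-/- mice, and their part in these r was not tested.

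By a two-sided exact permutation test over all orders of the mice within each genotype, 7 of the 9 relations had an unadjusted p under 0.05, beside 13.7% of the 13544 other tested genes. The exact permutation p for r and for rho was 0.000333 and 0.00127 for *Ces1b*, 0.00304 and 0.00163 for *Ces1c*, and 0.00765 and 0.00127 for *Ces1d*. It was 0.00058 and 0.000353 for *Ces1e* and 0.00141 and 0.00121 for *Ces1f*, again for r and for rho by the exact permutation test. For the genes of the other block it was 0.00212 and 0.00373 for *Ces3a*, 0.0282 and 0.00651 for *Ces2a*, 0.480 and 0.594 for *Ces2c*, and 0.550 and 0.931 for *Ces2e* (exact permutation test). Adjusted by the Benjamini-Hochberg method over all 13544 genes, 0 of the 9 passed 5% FDR for r or rho, the lowest adjusted p of the exact permutation test being 0.0876 for r (*Ces1b*) and 0.0948 for rho (*Ces1e*).

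Without Nod2-/- replicates 4 and 5, the mice farthest from the median of *Ces1g*, r was 0.68 to 0.87 for the 5 Ces1 neighbours, 0.52 for *Ces3a* and 0.50 for *Ces2a*, 0.23 for *Ces2c* and 0.31 for *Ces2e*. Of the 9 relations, 6 then had an unadjusted exact permutation p under 0.05, and *Ces2a* was at 0.0622. WT replicates 1 and 2, the highest WT mice in *Ces1g*, stayed in. Over the 5 Ces1 neighbours r was 0.84 to 0.91 within WT and 0.70 to 0.85 within Nod2-/- mice. In the same order it was 0.96 and 0.57 for *Ces2a*, 0.84 and 0.72 for *Ces3a*, -0.06 and 0.35 for *Ces2c*, and 0.13 and -0.32 for *Ces2e*. Among all genes *Ces1e* ranked only 203rd and *Ces1f* 333rd of 13544 in likeness to *Ces1g*. The 5 genes most like it were *C2cd2* (r = 0.95), *Crot* (0.95), *Ptprd* (0.94), *Pbld2* (0.93) and *Eif4a2* (0.92), all on other chromosomes.

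Among the members themselves the 15 pairs of Ces1 genes had a median r of 0.77 (0.59 to 0.94), highest for *Ces1e* with *Ces1f*, and the other 30 pairs had a median of 0.50 (-0.19 to 0.88). *Ces2c* and *Ces2e* followed each other (r = 0.70), and *Ces2a* followed *Ces3a* (r = 0.88) from the same block. Some pairs across the blocks were as close. *Ces3a* followed *Ces1e* (r = 0.86) and *Ces1f* (r = 0.82), *Ces2a* followed *Ces1e* (r = 0.79), and *Ces2c* followed *Ces1f* (r = 0.70). Within 2 mismatches, *Ces1b* (r = 0.75 with *Ces1c*) shared 42.9% of its windows with *Ces1c*, and *Ces1f* shared 6.37% with *Ces1e*. The part of shared reads in these r was not tested. All pairs share the same 13 libraries and their scaling, so these r are given as a description.

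**Figure D4:**
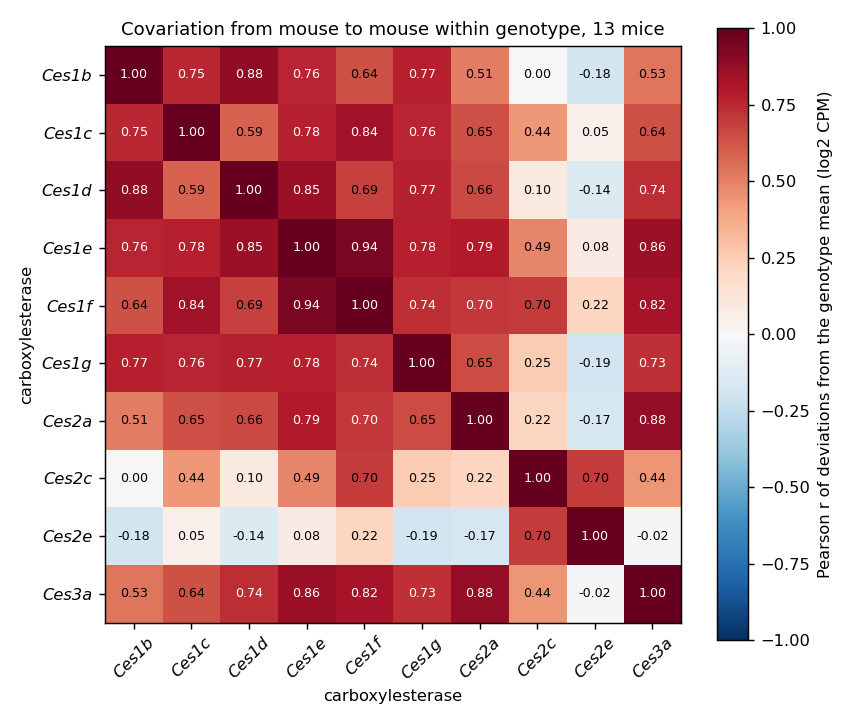
Pearson r between deviations from the genotype mean (log2 CPM) for each pair of the 10 carboxylesterases over 13 mice, coloured from -1 to 1. The Ces1 genes form a block at 0.59 to 0.94 that *Ces3a* and *Ces2a* join in part, and *Ces2e* follows only *Ces2c* (r = 0.70).

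Promoter sequences of GRCm38.p6 from RefSeq (250 bases before to 50 after a start site) were available for 7 of the 10 members, and those of *Ces1g* and of 2 neighbours are shown because these genes varied together and yet differed between the genotypes by unlike amounts. The windows are chr8:93337160-93337459 for *Ces1g*, chr8:93229570-93229869 for *Ces1e* and chr8:93131234-93131533 for *Ces1c*, all read 5′ to 3′ on the minus strand. Capitals mark matches to the motifs that were searched.
Ces1g: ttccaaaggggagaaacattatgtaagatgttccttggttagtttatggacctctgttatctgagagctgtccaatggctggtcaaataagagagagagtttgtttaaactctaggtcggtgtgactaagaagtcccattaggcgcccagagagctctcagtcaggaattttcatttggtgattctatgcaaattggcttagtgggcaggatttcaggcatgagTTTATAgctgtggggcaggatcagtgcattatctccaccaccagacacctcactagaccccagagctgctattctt
Ces1e: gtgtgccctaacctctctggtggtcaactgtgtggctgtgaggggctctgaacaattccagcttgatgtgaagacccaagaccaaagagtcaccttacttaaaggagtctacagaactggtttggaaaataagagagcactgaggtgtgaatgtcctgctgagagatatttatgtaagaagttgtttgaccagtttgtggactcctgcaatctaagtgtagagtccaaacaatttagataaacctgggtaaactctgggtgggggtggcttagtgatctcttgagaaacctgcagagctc
Ces1c: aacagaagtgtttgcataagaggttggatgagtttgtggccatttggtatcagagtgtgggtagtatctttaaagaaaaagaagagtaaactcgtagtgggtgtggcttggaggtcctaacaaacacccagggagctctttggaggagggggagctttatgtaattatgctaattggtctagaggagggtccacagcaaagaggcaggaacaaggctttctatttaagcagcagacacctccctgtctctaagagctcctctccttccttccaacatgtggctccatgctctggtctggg

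The motifs, searched on both strands, were the TATA box TATAAA, the HNF1 core GTTAAT, the HNF4 site CAAAGTCCA and the core AAGTCCA within it, the nuclear receptor motifs AGGTCA and AGTTCA, the antioxidant response core TGACNNNGC and the C/EBP site TTGCGCAA. In the *Ces1g* window TATAAA was found on the opposite strand, 26 bases before the RefSeq start site. In the GENCODE annotation *Ces1g* starts further upstream, at chr8:93337308, so that there the motif lies inside the gene. No letters of any searched motif were found in the *Ces1e* and *Ces1c* windows. TATAAA was present in 3 of the 16 carboxylesterase windows and in 13.6% of 32851 promoter windows of the same length, and AGTTCA in 5 of 16 and in 14.0%. The 16 windows belong to 15 genes, since *Ces1b* has 2 that overlap. The AGTTCA of both *Ces1b* windows is the same site. GTTAAT was present in 2 of 16 and in 7.10%, and AGGTCA in 3 of 16 and in 16.3%. The other motifs were in 0 of 16, with AAGTCCA in 4.17%, CAAAGTCCA in 0.475%, TGACNNNGC in 12.4% and TTGCGCAA in 0.183% of all windows. Over aligned bases the *Ces1g* window was 59.3% identical to that of *Ces1e* and 64.2% to that of *Ces1c*.

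Of the other 10 carboxylesterases of chromosome 8, whose values were tested, 5 had enough reads. None of the 5 was past 5% FDR by edgeR's quasi-likelihood test (2 at an unadjusted p under 0.05, 1 past 5% FDR by DESeq2). *Ces3b*, the close relative of *Ces3a*, had 9153 ± 1389 normalized counts (SD, n = 6) in WT and 5390 ± 1683 (SD, n = 7) in Nod2-/- mice. Of the Nod2-/- mice, 6 were below every WT mouse (edgeR log2 fold change -0.76 with standard error 0.20 and adjusted p = 0.0673, by DESeq2 0.0088), and it was past 5% FDR without WT replicate 3 or without Nod2-/- replicate 1. It shared 57.9% of its windows with *Ces3a* within 2 mismatches.

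*Ces2b* had 88.0 ± 67.1 and 26.9 ± 29.4 normalized counts (edgeR log2 fold change -1.70 with standard error 0.79 and adjusted p = 0.214). The log2 fold changes of *Ces2g*, *Ces4a* and *Ces2h* were 0.10, 0.06 and -0.25 (adjusted p = 0.836, 0.948 and 0.730 by edgeR). That of *Ces2h* was 0.12 without WT replicate 4, and that of *Ces4a* was -0.38 without Nod2-/- replicate 4. *Ces1h*, the gene on the other side of *Ces1g*, had at most 2 counts in a mouse, and *Ces1a*, *Ces2f* and *Ces2d-ps* at most 4, 3 and 9. *Ces5a*, a gene of the epididymis, had 0 counts in all mice.

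Of the genes from *Nod2* to the last carboxylesterase, 69 that are not members were tested. At an unadjusted p under 0.05 by edgeR were 22 of the 69, beside 23.1% of all genes tested. By edgeR 4 (5.80%) were past 5% FDR, beside 1.16% of all genes tested, 2 higher and 2 lower in Nod2-/- mice. They were *Arl2bp* (log2 fold change 3.63, standard error 0.28, adjusted p = 7.93e-06), *Cpne2* (1.07, standard error 0.23, adjusted p = 0.0422), *Gm15889* (-1.38, standard error 0.30, adjusted p = 0.0422) and *Herpud1* (-0.55, standard error 0.12, adjusted p = 0.0490). All 4 lie after the Ces1 genes, from 998 to 1287 kb beyond their end. *Arl2bp* was past 5% FDR in all 13 fits that each left out 1 mouse, *Cpne2* in 6, *Gm15889* in 4 and *Herpud1* in 3 (highest adjusted p 0.108, 0.107 and 0.131, each without WT replicate 2). *Arl2bp* alone passed in each fit that omitted WT replicate 1, 2, 4, 5 or Nod2-/- replicate 4, 6, 7, while 2 of the 69 passed without Nod2-/- replicate 2, and 10 passed without WT replicate 3.

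*Lpcat2*, the nearest tested gene before the Ces1 block at a distance of 101 kb, did not pass 5% FDR by edgeR. The authors, who used DESeq2, report *Lpcat2* among the genes elevated in Nod2-/- mice. *Lpcat2* averaged 9.33 normalized counts in WT and 22.5 in Nod2-/- mice (edgeR log2 fold change 1.26 with standard error 0.42 and adjusted p = 0.108). Of the 10 tested genes between *Nod2* and the block, 0 passed by edgeR (3 at an unadjusted p under 0.05).

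**Figure D5:**
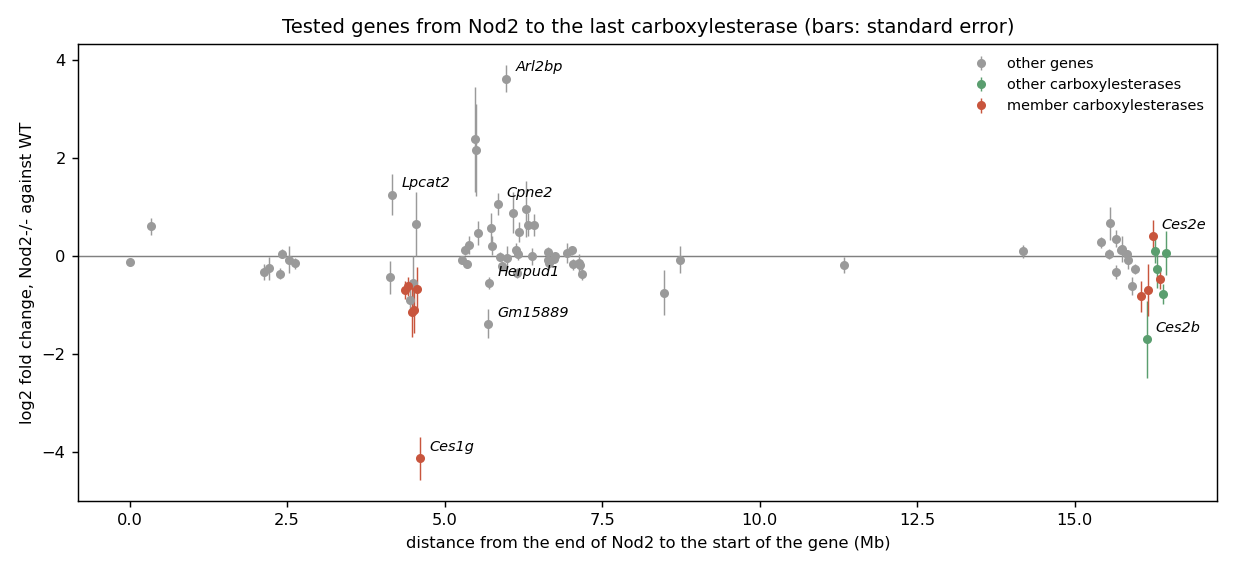
Log2 fold change of Nod2-/- against WT, with standard errors, for the tested genes from *Nod2* to the last carboxylesterase, plotted by distance from the end of *Nod2* in Mb. *Ces1g* at 4.61 Mb (-4.13) and *Arl2bp* at 5.98 Mb (3.63) stand farthest from 0, in opposite directions, and the other members lie between -1.14 and 0.40.

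Other lipid hydrolases of the hepatocyte were taken as a list of 15 genes, of which 14 were tested. Past 5% FDR by edgeR was 1, lower in Nod2-/- mice (7 at an unadjusted p under 0.05, 5 past 5% FDR by DESeq2), and the median log2 fold change was -0.28 against 0.02 over all genes. It was *Nceh1*, which hydrolyses cholesteryl and other neutral esters, with 1070 ± 126 normalized counts (SD, n = 6) in WT and 716 ± 109 (SD, n = 7) in Nod2-/- mice. The genotypes did not overlap (edgeR log2 fold change -0.58 with standard error 0.11 and adjusted p = 0.0267), and the call was lost without WT replicate 1, 2, 4 or 5 (adjusted p up to 0.0760). The list's count was 4 without WT replicate 3 and 2 without Nod2-/- replicate 5. *Pnpla3*, a lipid droplet protein, *Lpl*, lipoprotein lipase, and *Abhd6*, a monoacylglycerol lipase, differed by 2.26, 1.14 and -0.93 on the log2 scale (standard errors 0.82, 0.41 and 0.27, adjusted p = 0.129, 0.126 and 0.0805 by edgeR).

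Of 14 other ester and epoxide hydrolases, all tested, 0 were past 5% FDR by edgeR (9 at an unadjusted p under 0.05, 3 past 5% FDR by DESeq2), with a median log2 fold change of -0.31, and 2 passed by edgeR without WT replicate 3. The largest were *Pon1*, the paraoxonase of high-density lipoprotein, *Cmbl* and *Afmid* at -0.71, -0.63 and -0.59 (standard errors 0.26, 0.21 and 0.21, adjusted p = 0.129, 0.103 and 0.128 by edgeR). Of 9 genes of VLDL assembly, the route that *Ces1d* feeds, 0 were past 5% FDR by edgeR (4 at an unadjusted p under 0.05, 3 past 5% FDR by DESeq2), with a median of -0.01, and 3 passed by edgeR without WT replicate 3. *Apoa4*, *Tm6sf2* and *Sar1b* differed by 1.80, 0.99 and -0.41 on the log2 scale (standard errors 0.56, 0.29 and 0.13, adjusted p = 0.0929, 0.0805 and 0.0932 by edgeR).

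Nuclear receptors and other factors that act on drug response and hepatocyte genes were a list of 16, all tested, and 0 were past 5% FDR by edgeR (6 at an unadjusted p under 0.05, 2 past 5% FDR by DESeq2), with a median of -0.18. Without WT replicate 3 or without Nod2-/- replicate 3, 1 passed by edgeR. *Nr1i2* (the pregnane X receptor PXR), *Ppara* and *Nr1i3* (the constitutive androstane receptor CAR) differed by -0.61, -0.57 and -0.52 on the log2 scale (standard errors 0.17, 0.22 and 0.33, adjusted p = 0.0712, 0.150 and 0.353 by edgeR). Several Ces genes are known as targets of CAR and PXR. Of 10 other targets, 9 were tested, all 9 with a negative log2 fold change, beside 47.7% of all genes tested. Their median was -0.91 against 0.02 over all genes tested, and 0 of the 9 were past 5% FDR by edgeR. The count was 6 at an unadjusted p under 0.05 and 3 past 5% FDR by DESeq2, and by edgeR 3 without WT replicate 3, 2 without Nod2-/- replicate 5 and 1 without Nod2-/- replicate 1, Nod2-/- replicate 3 or WT replicate 6. *Cyp2b10*, *Cyp2a5* and *Cyp2c29*, drug-metabolizing cytochromes, differed by -1.78, -1.08 and -1.02 on the log2 scale (standard errors 0.69, 0.46 and 0.51, adjusted p = 0.148, 0.178 and 0.246 by edgeR). Of 8 NRF2 targets, 6 were tested and 0 were past 5% FDR by edgeR or DESeq2 (0 at an unadjusted p under 0.05), and the log2 fold changes of *Hmox1*, *Gclm* and *Gclc* were 0.18, -0.17 and -0.15 (standard errors 0.29, 0.10 and 0.24, adjusted p = 0.749, 0.331 and 0.736 by edgeR).

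Markers of other cell types were set beside these values. In the lung list 6 of 9 markers were tested and 5 of the 6 were lower in Nod2-/- mice, 0 of the 6 past 5% FDR by edgeR (5 at an unadjusted p under 0.05). DESeq2 placed 6 of all 9 markers past 5% FDR. Their part in the level of the carboxylesterases, *Ces1g* included, was not tested beyond the fit without the 3 WT mice. Kidney markers summed to at most 0.0530 CPM and pancreas markers to at most 0.355 CPM in any mouse. Intestinal markers summed to 167 to 277 CPM in WT and 126 to 269 CPM in Nod2-/- mice, mostly from *Fabp2*, with *Krt20* at up to 313 counts in a mouse, *Cdh17* at up to 98, *Vil1* at up to 21 and *Sis* and *Lct* at up to 2. Neutrophil markers reached 976 CPM in Nod2-/- replicate 7 and at most 41.8 CPM elsewhere, and without that mouse the log2 fold change of *Ces2a* was -0.67. Cholangiocyte and progenitor markers summed to 35.6 to 216 CPM in WT and 107 to 402 CPM in Nod2-/- mice, mostly from *Spp1* (means of 1452 and 3586 normalized counts). Of these 5 markers 3 were higher and 2 lower in Nod2-/- mice (*Krt19* at -0.40 and *Krt7* at -0.05 on the log2 scale). By edgeR 1 of the 5 was past 5% FDR (*Sox9*, 1.29 on the log2 scale, adjusted p = 0.0324). Kupffer cell markers summed to 97.6 to 165 CPM in WT and 119 to 359 CPM in Nod2-/- mice. The part of these cells in the levels of the carboxylesterases was not tested.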

How the data were processed

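The authors trimmed paired reads with Trimmomatic 0.33, mapped them with TopHat2 2.1.1 to GRCm38 and deposited whole-number counts per gene and mouse, without normalization. The counting program and its strand setting are not given in the sources used here. Of 53466 entries, 1 without a gene identifier or a count (0% of counts) was left out. Names, positions and exon lengths came from GENCODE release 21 (53360 genes matched).

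The filterByExpr function left 13545 genes, which hold 99.9% of all counts. Their two-sided quasi-likelihood test (edgeR 4.0.16, R 4.3.3) used TMM, glmQLFit, glmQLFTest and no covariate, with Benjamini-Hochberg adjustment and a 5% FDR. Alternatives were DESeq2 1.42.0 (the authors' tool), RLE normalization, other filters, the replicate number as a block and each mouse left out. The fit without 3 WT mice was added after seeing the data. Scripts were tested on simulated data.

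The members and all lists were chosen with earlier results of these data known. No p-value between genotypes is therefore given for a member, and counts of members past a threshold are descriptions. Their covariation (log2 CPM, prior count 2) was adjusted over 13544 genes in place of the 9 pairs planned.

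Named genes are the 20 carboxylesterases, the genes past 5% FDR and the 3 largest log2 fold changes (average log2 CPM of at least 1) of each list, genes past 5% FDR between *Nod2* and the last carboxylesterase with the nearest tested gene on each side of the Ces1 block, and the 5 most like *Ces1g*. A gene that this rule names is not reported here. *Ces2h* and *Ces2b* stay in although reads are few. The study used several cages and breeding pairs, but the labels tie no mouse to 1 of them, so p-values measure the spread between these mice. Intervals were not computed from counts, and the detection limit of 3 counts covers counting error only.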

Additional observations from a re-analysis of the deposited data

Results flagged for a closer look

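In 50 sets of values (the 15 tested carboxylesterases and the marker sums above 5 CPM, in each genotype) 8 had a highest mouse set apart from the rest by Dixon's 95% criterion, which chance meets in about 1 set in 20. Among members these were *Ces1d* in Nod2-/- replicate 5, at 29088 normalized counts against 10747 in the next mouse, and *Ces2e* in WT replicate 3, at 7761 against 3619. Among other carboxylesterases they were *Ces2h* in WT replicate 4 (29.6 against 12.2 normalized counts) and *Ces4a* in Nod2-/- replicate 4 (361 against 167). Summed hepatocyte markers were highest in Nod2-/- replicate 4 at 171845 CPM, against 117523 in the next mouse, and this mouse also had the lowest *Ces1b*, *Ces1c*, *Ces1d*, *Ces1e*, *Ces1g* and *Ces3a* and the highest *Ces2e* of all mice. Kupffer cell markers (359 against 190 CPM) and neutrophil markers (976 against 41.8 CPM) were highest in Nod2-/- replicate 7, and sinusoidal endothelium markers in WT replicate 3 (215 against 175 CPM).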

How the results depend on the processing

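The number of genes past 5% FDR was 157, against 1209 with DESeq2, 35 with the replicate block, 20 without the 3 WT mice with the most lung marker RNA, and 41 to 1156 with 1 mouse left out, where WT replicates 1, 2, 4 and 5 and Nod2-/- replicates 4, 6 and 7 lowered it by over 1.5 times and WT replicate 3 raised it. Members past it numbered 3 with DESeq2 and 1 to 2 with 1 mouse left out (2 without WT replicate 3), and nothing is read from these counts, since the members were chosen with this contrast known. For the other carboxylesterases the count of 0 became 1 with DESeq2 (*Ces3b*) and 0 to 1 with 1 mouse left out. For genes between *Nod2* and the last carboxylesterase the count of 4 became 10 with DESeq2, 1 with the replicate block, 1 without the 3 WT mice, 1 within 1 Mb of the Ces1 genes, and 1 to 10 with 1 mouse left out. The 1 neutral lipid hydrolase became 5 with DESeq2, 0 with the replicate block, 0 without the 3 WT mice, and 0 to 4 with 1 mouse left out. With DESeq2 the counts of 0 became 3 for other ester and epoxide hydrolases, 3 for VLDL assembly, 2 for nuclear receptors and 3 for CAR and PXR targets, and with 1 mouse left out they ranged from 0 to 2, 0 to 3, 0 to 1 and 0 to 3. CAR and PXR targets were also 1 without a filter on low counts (*Ugt1a1*). The cause of these shifts was not tested. No member changed the sign of its log2 fold change under any of these settings, and the covariation with *Ces1g* passed 5% FDR for 0 of 9 members with each setting.

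Equal replicate numbers did not mark paired mice: deviations of same-numbered mice correlated at -0.30 to 0.30 over 6 numbers, 1 of them above 0.1, and 0 of 6 correlated best with their own number. With the replicate block the log2 fold change of *Ces1g* was -4.28, and *Nceh1*, *Gm15889*, *Herpud1* and *Cpne2* were not past 5% FDR.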
